A study of Mus musculus with 8 samples.

Results

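The genes of Polycomb repressive complex 2 (PRC2) were examined in RNA sequencing counts from 8 Myc-CaP tumors. The set held 10 genes, Ezh1, Ezh2, Eed, Suz12, Rbbp4, Rbbp7, Jarid2, Mtf2, Phf1 and Phf19, which were taken by name from the 38115 genes listed in the count files. Each of the 10 was present once in every file, and all 10 were among the 17104 genes that passed the filter on low counts. Myc-CaP cells, derived from a mouse prostate carcinoma, were used as an androgen sensitive line (Myc-CaP/AS) or a castrate resistant line (Myc-CaP/CR). Cells were placed in the anterior prostate of male FVB mice that were intact or had been castrated surgically, and primary and metastatic tumors were collected. There were 2 primary and 2 metastatic tumors of each phenotype, called AS1, AS2, CR1 and CR2 within each tumor type. The study's text counts fewer primary tumors than these, and all of those with counts were used here. The labels name no drug, and do not say which phenotype grew in which host or from which organ a metastasis came. Each phenotype rests on a single line. Metastases carry the word matched in their labels without naming the primary tumor, so the 4 tumors of a phenotype may come from as few as 2 mice and p-values over 4 tumors may then be too small.

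PRC2 is the histone methyltransferase that places the repressive mark on lysine 27 of histone H3 (H3K27me3). The core is built from a catalytic subunit, EZH2 or its paralog EZH1, together with EED, which reads the mark, the scaffold SUZ12, and the histone chaperone RBBP4 or RBBP7. EZH2 is the stronger enzyme and is typical of dividing cells, whereas EZH1 is typical of cells that divide little. Accessory proteins bring the core to chromatin. The Polycomb-like proteins PHF1, MTF2 and PHF19 define one form of the complex, and JARID2 with AEBP2 defines the other. EZH2 is often raised in advanced prostate cancer, and an EZH2 inhibitor was combined with a topoisomerase II poison in the study, which is the question behind setting Ezh2 beside the other subunits here.

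Library totals ranged from 61237285 to 91886163 counts in AS tumors and from 20905806 to 76887592 in CR tumors. The library identifiers in the labels fall in separate number ranges for AS and CR tumors, so phenotype and any difference in library preparation cannot be told apart. The luminal keratin gene Krt8 was at 36.4 to 710 CPM, where CPM is the count scaled to the TMM-normalized library size, but the defining epithelial genes Epcam (at most 0.279 CPM), Cdh1 (at most 0.606 CPM) and Krt18 (at most 0.418 CPM) were near 0, as was the differentiated prostate gene Pbsn. The summed level of 8 epithelial genes was 42.4 to 178 CPM in AS tumors and 298 to 855 CPM in CR tumors, without overlap, and came mostly from Krt8 and Krt19. The summed levels of the fibroblast (63.0 to 97.1 CPM in AS and 64.2 to 120 CPM in CR), endothelial (54.3 to 97.8 and 48.5 to 94.8 CPM) and leukocyte lists (313 to 465 and 203 to 430 CPM) overlapped between phenotypes. The liver gene Alb was at most 3.18 CPM and the lung gene Sftpc at most 0.0419 CPM. Of the hepatocyte list, Fgb stood at 3710 to 10060 CPM in AS and 87.8 to 1967 CPM in CR tumors. The part of these marker differences in the results on phenotype was not tested. In such bulk tumors, fewer cells of a type and less RNA per cell cannot be told apart.

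Per kilobase of exon, the 10 genes spanned a wide range of expression. Rbbp7 was highest at 128 ± 38.3 CPM per kb (mean ± SD, n = 8), followed by Suz12 at 15.6 ± 3.11 and Rbbp4 at 9.95 ± 1.21. Eed, Mtf2 and Ezh1 followed at 5.12 ± 0.737, 4.82 ± 0.787 and 4.11 ± 0.530. Their order was not settled, since Eed was above Mtf2 in 6 of 8 tumors and Mtf2 above Ezh1 in 5 of 8. Ezh2 (2.42 ± 0.885 CPM per kb) and Jarid2 (2.35 ± 0.667) did not separate either, with Ezh2 the higher in 4 of 8 tumors. Ezh1 was above Ezh2 in 8 of 8 tumors. Phf1 (1.18 ± 0.416 CPM per kb) and Phf19 (0.0448 ± 0.0273) were lowest. Phf19, which encodes a Polycomb-like protein, had 1 to 45 reads per tumor, and differences in this gene were not detectable at this depth.

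**Figure D1:**
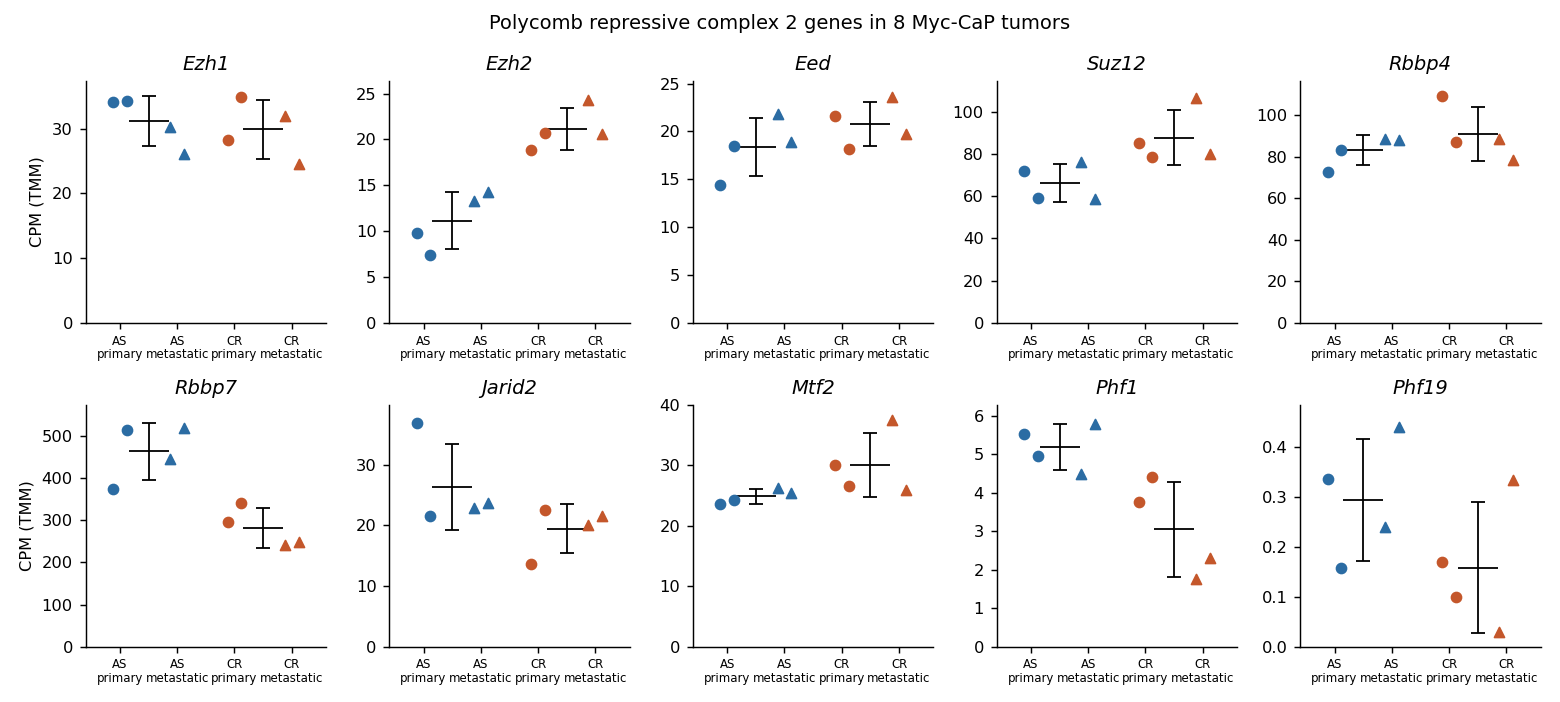
Level of the 10 PRC2 genes in each tumor, in CPM on TMM-normalized libraries (y axis, each panel with its own linear scale from 0). Blue points are Myc-CaP/AS and orange points Myc-CaP/CR tumors, circles are primary and triangles metastatic tumors, and the black bar with whiskers is the mean ± SD of the 4 tumors of a phenotype. Ezh2 and Suz12 are higher, and Rbbp7 and Phf1 lower, in all 4 CR tumors than in all 4 AS tumors.

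Ezh2, the catalytic subunit (mouse GRCm38, chr6:47530139-47595341, minus strand), was higher in castrate resistant than in androgen sensitive tumors. In AS tumors Ezh2 was at 9.79 and 7.38 CPM in the primary tumors and 13.2 and 14.2 CPM in the metastases. In CR tumors it was at 18.9 and 20.8 CPM in the primary tumors and 24.3 and 20.6 CPM in the metastases. The groups did not overlap, and within the AS tumors both metastases lay above both primary tumors. The difference was 0.96 on the log2 scale (SE 0.18, 95% interval 0.56 to 1.36), a 1.94-fold rise, with an adjusted p of 0.0146 by edgeR's quasi-likelihood test. Within primary tumors alone the difference was 1.19 (adjusted p = 0.0992) and within metastases alone 0.67 (adjusted p = 0.177), so the direction was the same but neither passed the threshold on 2 against 2 tumors. The call was also lost without metastatic AS1 (adjusted p = 0.0561) and when a primary tumor and a metastasis of 1 phenotype were summed into a single unit, where the 4 possible pairings gave 0.80 to 0.84 (adjusted p = 0.100 to 0.141).

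Ezh1, the paralogous catalytic subunit (chr11:101191115-101226463, minus strand), did not share this pattern. Its level was 34.1 and 34.3 CPM in primary AS, 30.3 and 26.2 CPM in metastatic AS, 28.3 and 34.9 CPM in primary CR and 31.9 and 24.5 CPM in metastatic CR tumors. The phenotypes overlapped throughout. The CR minus AS difference was -0.06 on the log2 scale (SE 0.15, 95% interval -0.39 to 0.28, adjusted p = 0.83), and the interval leaves out a change as large as that of Ezh2 in either direction.

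The balance between the paralogs could be read within each library, without any scaling. There were 28.7 and 21.5 Ezh2 reads per 100 Ezh1 reads in the primary AS tumors, 43.7 and 54.4 in the metastatic AS tumors, 66.7 and 59.4 in the primary CR tumors and 76.0 and 84.3 in the metastatic CR tumors. Every CR tumor was above every AS tumor. The mean log2 ratio of Ezh2 to Ezh1 counts was -0.49 ± 0.22 in CR and -1.52 ± 0.60 in AS tumors (SD, n = 4 each), a 2.04-fold difference with an exact two-sided permutation p of 0.0286, the smallest that 4 against 4 tumors allow. Corrected for exon length, Ezh2 made up 19.3% to 37.7% of the summed Ezh1 and Ezh2 level in AS and 39.8% to 48.4% in CR tumors. Between metastatic and primary tumors the same ratio differed by 0.66 on the log2 scale, with overlapping groups (exact permutation p = 0.229).

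**Figure D2:**
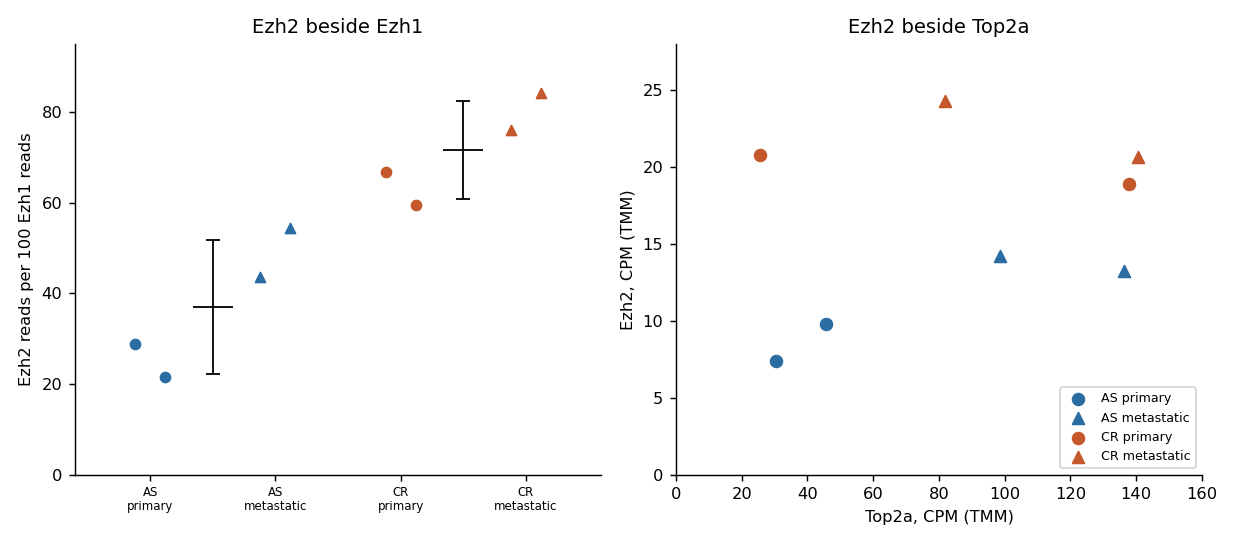
Left, Ezh2 reads per 100 Ezh1 reads in each tumor (y axis, linear from 0), grouped by phenotype and tumor type, with the mean ± SD of each phenotype in black. Right, Ezh2 (y axis, CPM) against Top2a (x axis, CPM) in the same 8 tumors, colored by phenotype. The ratio runs from 21.5 to 54.4 in AS and from 59.4 to 84.3 in CR tumors, and primary CR2 combines 20.8 CPM of Ezh2 with the lowest Top2a, 25.6 CPM.

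The stretch just upstream of the RefSeq start is shown for the paralogs, which differed in their response, and for Rbbp7, which moved the opposite way. The sequences are those of RefSeq on GRCm38.p6, from 153 to 29 bases before the start, on the coding strand, and lie outside every exon of the GENCODE annotation. The RefSeq start of Ezh2 is at base 47595030, inside the longer GENCODE span given above, so the Ezh2 stretch lies within the annotated gene. Capitals mark the CCAAT box (CCAAT, or ATTGG for the reverse strand).
Ezh2, chr6:47595059-47595183, minus strand: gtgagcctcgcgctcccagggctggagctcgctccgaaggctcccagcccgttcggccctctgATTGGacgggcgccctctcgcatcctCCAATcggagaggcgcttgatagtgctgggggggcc
Ezh1, chr11:101226492-101226616, minus strand: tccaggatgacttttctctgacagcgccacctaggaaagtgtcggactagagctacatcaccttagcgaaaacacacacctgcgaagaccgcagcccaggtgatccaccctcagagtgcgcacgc
Rbbp7, chrX:162760219-162760343, plus strand: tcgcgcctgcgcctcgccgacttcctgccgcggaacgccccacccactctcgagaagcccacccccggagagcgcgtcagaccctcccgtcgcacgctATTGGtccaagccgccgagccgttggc
The Ezh2 stretch holds a CCAAT box on each strand, the Rbbp7 stretch holds 1 on the reverse strand, and the Ezh1 stretch has none. Motifs were also sought over the full RefSeq windows of 300 bases around each start. Mtf2 and Jarid2 have more than 1 start, and a gene was counted where any of its windows matched. The counts of genes and the shares of windows below are thus not like for like. CCAAT was found on either strand for 7 of the 10 genes and in 37.4% of all 32851 promoter windows. An E2F octamer (TTTCGCGC, TTTGGCGC, TTTCCCGC or TTTGCCGC, either strand) was found for Ezh2, Suz12 and Phf19 and in 2.26% of all windows. The Ezh2 match, TTTGGCGC, begins at base 4 of the RefSeq transcript. The E-box CACGTG, a sequence that Myc can bind, was found only for Rbbp4 among the 10 and in 7.15% of all windows. A match describes letters in a window and says nothing on binding.

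Across the 10 genes, 2 passed the adjusted threshold between phenotypes, Ezh2 upward and Rbbp7 downward, where 12.2% of all tested genes did. At an unadjusted p under 0.05 there were 4 of 10 (Ezh2, Suz12, Rbbp7 and Phf1) against 28.8% of all tested genes. The same 4 had groups without overlap, against 18.9% of all tested genes. The median log2 difference over the 10 genes was 0.03, beside -0.01 over all tested genes, with 5 genes positive and 5 negative. The 10 genes thus did not move in a single direction.

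**Figure D3:**
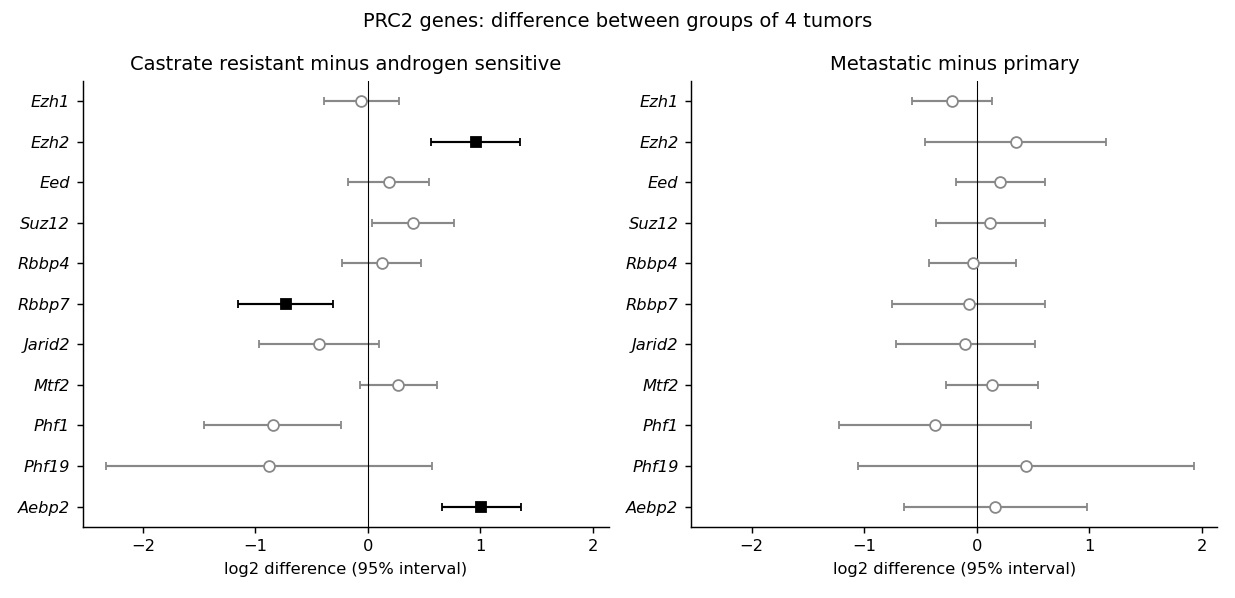
Log2 difference (x axis) with its 95% interval for each PRC2 gene and for Aebp2, for CR minus AS tumors (left) and metastatic minus primary tumors (right), from edgeR's quasi-likelihood fit with 4 tumors per group. Filled squares have an adjusted p under 0.05 and open circles do not. Ezh2 and Aebp2 lie near 1 and Rbbp7 at -0.73 between phenotypes, and no gene is filled between metastatic and primary tumors.

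Of the other core subunits, Suz12, the scaffold (chr11:79993106-80034123, plus strand), was higher in CR tumors but did not pass. It was at 71.7 and 59.1 CPM in primary AS, 76.0 and 58.5 CPM in metastatic AS, 85.3 and 78.7 CPM in primary CR and 107 and 80.2 CPM in metastatic CR tumors. The lowest CR tumor was just above the highest AS tumor, and the log2 difference was 0.40 (SE 0.16, adjusted p = 0.142). Eed, whose protein binds H3K27me3 (chr7:89954654-89980983, minus strand), ranged from 14.4 to 21.8 CPM in AS and from 18.2 to 23.6 CPM in CR tumors, with a log2 difference of 0.18 (SE 0.16, adjusted p = 0.475). Relative to its partners, Ezh2 was at 40.1 to 75.2 reads per 100 Eed reads in AS and at 87.6 to 114 in CR tumors. Per 100 Suz12 reads the values were 12.5 to 24.3 and 22.2 to 26.4, which overlapped.

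Rbbp7 (chrX:162760402-162779092, plus strand) was lower in CR tumors, and its paralog Rbbp4 (chr4:129307100-129335370, minus strand) was not. These chaperones also belong to other chromatin complexes, so their level is not a measure of PRC2 alone. Rbbp7 was at 374 and 516 CPM in primary AS, 446 and 520 CPM in metastatic AS, 296 and 342 CPM in primary CR and 242 and 248 CPM in metastatic CR tumors. The groups did not overlap, by 374 against 342 CPM at the nearest. The difference was -0.73 on the log2 scale (SE 0.19, 95% interval -1.15 to -0.31), 1.66-fold lower in CR, with an adjusted p of 0.0375. The call was lost without any 1 of primary AS2, metastatic AS1, metastatic AS2, primary CR2, metastatic CR1 and metastatic CR2 (adjusted p = 0.0512 to 0.125), within primary tumors (-0.49, adjusted p = 0.432), within metastases (-1.02, adjusted p = 0.0964) and with pairs summed (adjusted p = 0.105 to 0.219).

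Part of the Rbbp7 transcript is shared with another gene. Of its 2144 windows of the read length, 16.0% matched Gm6382 with up to 2 mismatches, so reads there could be lost or assigned to Gm6382. Gm6382 itself was at 74.4 to 99.5 CPM in AS and 58.9 to 80.3 CPM in CR tumors, with a log2 difference of -0.45 (SE 0.17, adjusted p = 0.110). For Rbbp4 the shared windows came to 0.581%, and for the other 8 genes to 0. Rbbp4 was at 72.8 to 88.5 CPM in AS and 78.7 to 109 CPM in CR tumors, a log2 difference of 0.12 (SE 0.16, adjusted p = 0.638). There were 504 to 618 Rbbp7 reads per 100 Rbbp4 reads in AS tumors and 272 to 393 in CR tumors, and the ranges did not meet.

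None of the accessory subunits Phf1, Mtf2, Phf19 and Jarid2 passed the adjusted threshold between phenotypes by edgeR. Among the Polycomb-like genes, Phf1 (chr17:26933052-26937908, plus strand) was at 5.54 and 4.96 CPM in primary AS, 4.48 and 5.79 CPM in metastatic AS, 3.76 and 4.41 CPM in primary CR and 1.75 and 2.30 CPM in metastatic CR tumors. All CR tumors were below all AS tumors, narrowly in the primary tumors. The log2 difference was -0.85 (SE 0.27, adjusted p = 0.0726), and it passed with DESeq2 (adjusted p = 0.0186) and with no filter on low counts (adjusted p = 0.0347). Exons of Phf1 overlap those of Cuta on the opposite strand over 1370 bases. Cuta was itself lower in CR tumors by 0.73 (SE 0.19, adjusted p = 0.0374). Since the strand setting of the counting is not given in the sources used here, reads of both genes cannot be told apart in that overlap. The same limit holds for shorter overlaps with opposite-strand exons in Rbbp4 (782 bases with Sync, 796 with Gm26722), Mtf2 (395) and Eed (261). In Ezh2, Suz12 and Rbbp7 such overlaps span 174 to 178 bases. Mtf2 (chr5:108065674-108109004, plus strand) was at 23.6 to 26.2 CPM in AS and 26.0 to 37.5 CPM in CR tumors, a log2 difference of 0.27 (SE 0.15, adjusted p = 0.269). Per kilobase, Phf1 accounted for 21.7% to 27.4% of the 3 Polycomb-like genes in AS tumors and 7.11% to 21.2% in CR tumors, and Mtf2 for most of the rest.

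Of Jarid2 and Aebp2, the partners of the other form, Aebp2 passed and Jarid2 did not. Jarid2 (chr13:44729474-44921643, plus strand), a nonenzymatic member of the Jumonji family that helps to recruit PRC2, was at 36.9 and 21.6 CPM in primary AS, 22.9 and 23.8 CPM in metastatic AS, 13.6 and 22.5 CPM in primary CR and 20.1 and 21.6 CPM in metastatic CR tumors. The groups overlapped, and the log2 difference was -0.43 (SE 0.23, adjusted p = 0.259). Aebp2, a zinc finger cofactor that is not among the 10 genes but stood on a list of 5 other PRC2 partners, was at 35.3 and 28.2 CPM in primary AS, 32.5 and 36.9 CPM in metastatic AS, 52.9 and 72.2 CPM in primary CR and 68.1 and 74.4 CPM in metastatic CR tumors. The groups were well apart, with a log2 difference of 1.01 (SE 0.15, 2.01-fold, adjusted p = 0.00836). The call was lost with pairs summed (adjusted p = 0.0850 to 0.115) and within each tumor type (adjusted p = 0.149 in primary tumors and 0.0909 in metastases). Jarid2 made up 39.5% to 51.4% of the summed Jarid2 and Aebp2 level per kilobase in AS tumors and 20.7% to 24.0% in CR tumors. Of the remaining partners, Lcor and Lcorl, whose loci encode the PALI partners, differed by -0.55 (adjusted p = 0.104) and 0.41 (adjusted p = 0.149).

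**Figure D4:**
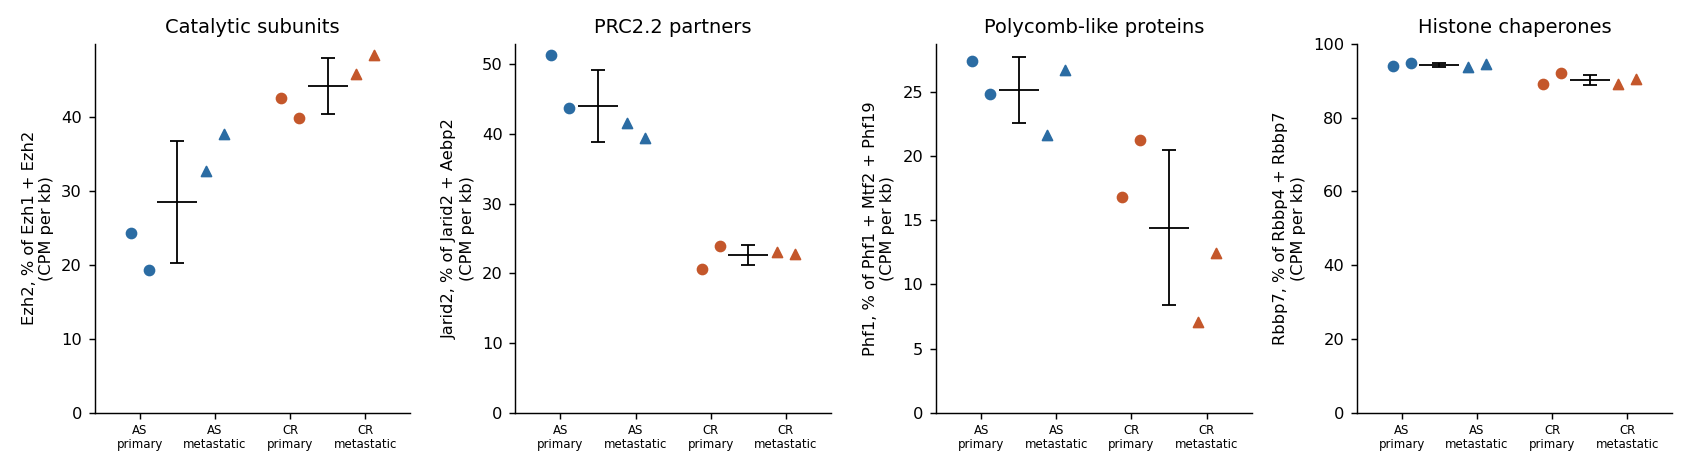
Share of 1 gene in the summed level of its set, per kilobase of exon, in each tumor (y axes in percent, linear from 0). From left to right: Ezh2 of Ezh1 and Ezh2, Jarid2 of Jarid2 and Aebp2, Phf1 of the 3 Polycomb-like genes, and Rbbp7 of Rbbp4 and Rbbp7. Symbols as for the plot of levels. In each panel the phenotypes do not overlap. The gap is widest for the Jarid2 share, at 39.5% or more in AS and 24.0% or less in CR tumors. Jarid2 and Aebp2 belong to the same form and are not alternatives, and the level of Jarid2 alone overlaps between phenotypes.

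Between metastatic and primary tumors, none of the 10 PRC2 genes passed by edgeR, either after adjustment (0% of all tested genes passed) or at an unadjusted p under 0.05 (2.68% of all tested genes), and none passed the adjusted threshold by DESeq2. In 0 of 10 genes did the groups separate, against 1.7% of all tested genes. Ezh2 averaged 18.1 ± 5.26 CPM in metastases and 14.2 ± 6.61 CPM in primary tumors (SD, n = 4 each), and these overlapped. The log2 difference of Ezh2 was 0.35 (SE 0.36, 95% interval -0.45 to 1.15, adjusted p = 0.997) in this fit, which ignores phenotype. With phenotype as a covariate it was 0.43 (SE 0.18, unadjusted p = 0.0368, adjusted p = 0.726), in a fit where 1146 of 17104 genes had an unadjusted p under 0.05 and 0 passed after adjustment. With each possible pairing of a metastasis and a primary tumor as a replicate block it was also 0.43 (unadjusted p = 0.0517 to 0.0590). Within AS tumors Ezh2 differed by 0.67 (SE 0.24, unadjusted p = 0.0223, adjusted p = 1.0) and within CR tumors by 0.15 (SE 0.24, unadjusted p = 0.535). The test of that contrast itself gave -0.52 (SE 0.34, unadjusted p = 0.162, adjusted p = 0.964). Ezh1 differed by -0.22 (SE 0.16, adjusted p = 0.997), and the median over the 10 genes was 0.04, beside -0.03 over all tested genes.

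The interaction of tumor type and phenotype was past the adjusted threshold by edgeR for none of the 10 genes (0% of 18889 tested genes). None of the 10 passed it by DESeq2 either. Phf1 alone of the 10 had an unadjusted p under 0.05 by edgeR, where 517 of the 18889 tested genes did. For Phf1, metastases minus primary tumors differed by -1.04 in CR tumors (SE 0.31) and by -0.04 in AS tumors (SE 0.30), an interaction of -1.0 (SE 0.43, unadjusted p = 0.0489, adjusted p = 0.964). The 2 CR metastases with the low values had 60 and 55 Phf1 reads.

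Ezh2 was set beside Top2a, the topoisomerase II alpha gene at the center of the study, and Mki67, a marker of cycling cells. Top2a was at 45.6, 30.5, 138 and 25.6 CPM in primary AS1, AS2, CR1 and CR2 and at 136, 98.5, 81.9 and 141 CPM in metastatic AS1, AS2, CR1 and CR2. Within AS tumors the order of low primary and high metastatic values was shared by Ezh2, Top2a and Mki67. In CR tumors Mki67 alone kept it, at 65.5 and 34.4 CPM in primary and 80.8 and 143 CPM in metastatic tumors. Top2a did not, since primary CR1 at 138 CPM lay above metastatic CR1 at 81.9 CPM. Nor did Ezh2, at 20.8 CPM in primary CR2 and 20.6 CPM in metastatic CR2. Primary CR2 had the lowest Top2a of all 8 tumors. There were 81.0 Ezh2 reads per 100 Top2a reads in that tumor and 9.71 to 29.6 in the other 7. Between phenotypes Top2a differed by 0.51 (SE 0.49, adjusted p = 0.531) and Mki67 by 0.42 (SE 0.28, adjusted p = 0.364). Of 20 proliferation genes, 0 passed between phenotypes by edgeR, adjusted or unadjusted, where 12.2% and 28.8% of all tested genes passed. Their differences were still mostly positive, 19 up and 1 down, with a median of 0.45 beside -0.01 over all tested genes. The same list had a median of 0.83 between metastatic and primary tumors, with all 20 positive, 8 at an unadjusted p under 0.05 (2.68% of all tested genes) and 0 adjusted.

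Over the 8 tumors, the genes most like Ezh2 by Pearson r of log2(CPM + 1), among 10295 genes at 5 CPM or more, were Ptbp1 (r = 0.98), Gls2 (0.98), Syde2 (0.98), Zc3h14 (0.96) and Gcom1 (0.96). Aebp2 ranked 97 (r = 0.91), Suz12 843 (0.77), Mtf2 1220 (0.71) and Eed 2033 (0.58). Top2a ranked 2983 (r = 0.39), and Rbbp7 was near the other end (r = -0.79). For Ezh1 the closest were Pcmtd1 (r = 0.96), Tox4 (0.95), Sec22b (0.93), Plcxd2 (0.93) and Eif2ak3 (0.93), while Mki67 (r = -0.81) and Top2a (r = -0.82) were among the least alike. These values describe 8 points that share phenotype groups and libraries, and a gene that only separates the phenotypes scores high beside Ezh2.

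The genes around PRC2 were read from lists of general knowledge. Of 20 tested PRC1 genes, which encode the complex that binds H3K27me3 and ubiquitinates histone H2A, 1 passed between phenotypes, where 12.2% of all tested genes did. This was Cbx8, a chromobox reader, at 6.60 to 8.18 CPM in AS and 3.22 to 6.25 CPM in CR tumors (log2 difference -0.80, SE 0.22, adjusted p = 0.0458), and the list median was 0.06. None of 3 H3K27 demethylase genes passed after adjustment by edgeR. Kdm6a was the one with an unadjusted p under 0.05, at a log2 difference of 0.37 (adjusted p = 0.135). None of the 7 genes for opposing H3K36 and H3K4 methyltransferases passed after adjustment, nor did any of 3 genes of the H2A deubiquitinase. At an unadjusted p under 0.05 these 2 lists had 1 and 0 genes. Of all tested genes, 28.8% were at that level between phenotypes, so these counts and that of the demethylases do not mark out the lists. Of 13 E2F and pocket protein genes, which include known regulators of Ezh2, 2 passed, beside 12.2% of all tested genes. E2f8 rose by 1.25 (adjusted p = 0.0364) and E2f2 fell by 2.91 (SE 0.48, adjusted p = 0.0105) on the log2 scale in CR tumors. For E2f8 the phenotypes overlapped, at 0.456 to 1.92 CPM in AS, 1.47 and 1.34 CPM in primary CR and 3.86 and 5.90 CPM in metastatic CR tumors. E2f2, an activator E2F, was at 10.1, 7.26, 7.60 and 8.13 CPM in the AS tumors and at 1.74, 0.297, 1.58 and 0.586 CPM in the CR tumors. Of 20 alternatives, E2f2 passed in 16, E2f8 in 6 and Cbx8 in 5. The calls of E2f8 and Cbx8 were both lost without any 1 of primary AS2, metastatic AS1, metastatic AS2, primary CR2, metastatic CR1 and metastatic CR2 (adjusted p = 0.0624 to 0.147).

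Genes described as repressed by EZH2 in cancer were higher, where they differed, in the CR tumors with the higher Ezh2. Of 10 tested, 4 passed upward and 0 downward, where 6.16% of all tested genes passed upward. The list was chosen with earlier results of these data known, so this share is not an independent check. The list median was 0.69 on the log2 scale, beside -0.01 over all tested genes, with 9 of 10 positive. Fbxo32, which encodes a muscle ubiquitin ligase subunit, was at 2.54, 1.38, 2.01 and 1.28 CPM in AS and at 4.73, 7.28, 8.04 and 4.23 CPM in CR tumors, without overlap, a rise of 1.75 (SE 0.33, adjusted p = 0.0156). Runx3, a transcription factor gene also active in lymphocytes, rose by 1.68 (SE 0.37, adjusted p = 0.0248), but primary CR1 at 2.42 CPM lay within the AS range of 1.11 to 2.49 CPM. Cdkn1c, a cell cycle inhibitor gene named after its values were seen, was at 0.363 to 0.656 CPM in AS and 0.963 to 2.25 CPM in CR tumors and rose by 1.61 (SE 0.40, adjusted p = 0.0360). Genes of the list that did not pass were Dab2ip (0.38, adjusted p = 0.125), Slit2 (1.17, adjusted p = 0.295), Timp3 (0.17), Cdkn2a (0.07), Cdh1 (0.05) and Vash1 (-0.14). Leaving out 1 tumor gave a count of 0 without primary AS2 or metastatic AS1, 1 without metastatic AS2, 2 without primary AS1, primary CR2, metastatic CR1 or metastatic CR2, and 3 without primary CR1. The count was 0 within either tumor type, 0 or 1 with pairs summed and 2 on total counts.

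**Figure D5:**
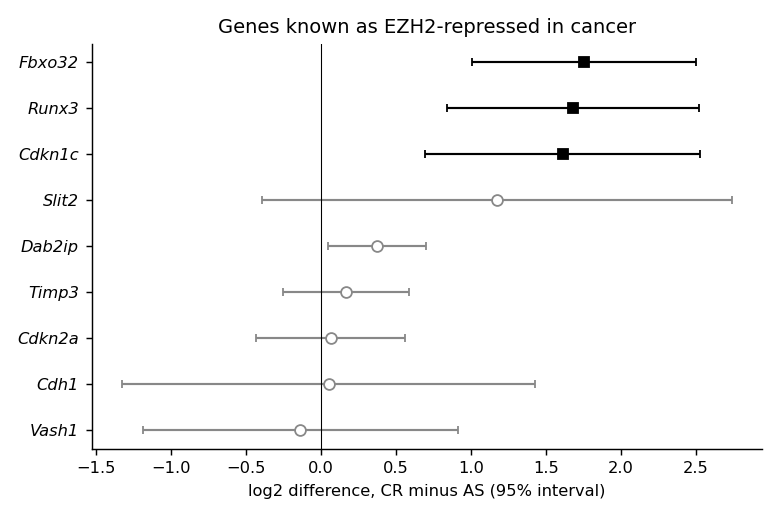
Log2 difference, CR minus AS (x axis), with its 95% interval for 9 of the 10 tested genes of the list of genes known as EZH2-repressed in cancer (y axis), from edgeR's quasi-likelihood fit with 4 tumors per phenotype. Filled squares have an adjusted p under 0.05. Fbxo32, Runx3 and Cdkn1c are filled and lie at 1.61 to 1.75.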

How the data were processed

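Raw counts per gene were deposited by the authors for 8 tumors, with no normalization. Per the methods, ribosomal RNA was depleted, stranded libraries were sequenced as paired-end reads, and reads were mapped to mm10 with Bowtie, keeping unique matches with up to 2 mismatches. The submitters' processing notes name CASAVA 1.8.2, TopHat2 2.0 and GRCm38. The counting tool, its strand setting and the annotation release are not given in the sources used here.

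Counts were fitted over all genes in R 4.3.3 with edgeR 4.0.16 (filterByExpr, TMM, quasi-likelihood test, Benjamini-Hochberg over all genes tested, threshold 0.05). The phenotype model held tumor type as a covariate. DESeq2 1.42.0 was an alternative. CPM used TMM-normalized libraries, and levels per kb used exon lengths of GENCODE M21. The log2 ratio of counts added 0.5 to each count and was tested by exact permutation. Scripts were tested on simulated data. Figures used matplotlib 3.10.9.

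The genes and lists were chosen with earlier results of these data known. Named list genes were at most the 3 with the smallest p per list and comparison, beside Top2a, Mki67, the 5 genes most like Ezh2 and the 5 most like Ezh1. Cdkn1c, the other EZH2-repressed genes, Gm6382, Cuta and marker genes were added. Intervals are 95% confidence intervals for the difference between groups. They are built from the spread between tumors and treat each tumor as independent. Values of 1 gene of the EZH2-repressed list, which enters that list's counts and median, and of some marker genes are not reported here.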

Additional observations from a re-analysis of the deposited data

Results flagged for a closer look

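Of 40 groups of 4 tumors (10 PRC2 genes, each by tumor type and by phenotype), 4 held a tumor that stood far from the other 3 by Dixon's ratio. Chance flags about 1 in 20 groups. Ezh1 was at 28.3 CPM in primary CR1, where the other primary tumors were at 34.1 to 34.9 CPM. Rbbp4 was at 78.7 CPM in metastatic CR2, where the other metastases were at 88.2 to 88.5 CPM. Jarid2 was at 36.9 CPM in primary AS1, where the other AS tumors were at 21.6 to 23.8 CPM. Mtf2 was at 37.5 CPM in metastatic CR1, where the other metastases were at 25.5 to 26.2 CPM. The 4 flags fell in 4 different tumors.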

How the results depend on the processing

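The number of PRC2 genes past the threshold between CR and AS tumors was 2 and fell to 0 within primary tumors, within metastatic tumors and for all 4 pairings with pairs summed, an alternative chosen after seeing the data. Leaving out 1 tumor gave 0 (without metastatic AS1) to 2, and 1 without any of primary AS2, metastatic AS2, primary CR2, metastatic CR1 and metastatic CR2. Between metastatic and primary tumors, and for the interaction, it was 0 under every alternative run for each. Those between metastatic and primary tumors included each of the 4 possible pairings as a replicate block, which was not run for the interaction. Which pairing is right is not given, so no block could be preferred. The difference in the log2 ratio of Ezh2 to Ezh1 between phenotypes was 0.80 to 1.24 with 1 tumor left out. Its exact permutation p was 0.0571 without any 1 CR tumor and 0.0286 without any 1 AS tumor. Between phenotypes, the sign turned within metastatic tumors for Rbbp4 (-0.12) and Top2a (-0.12). With 1 tumor left out the difference ranged from -0.14 to 0.0049 for Ezh1 and from -0.28 to 0.79 for Top2a.

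Between metastatic and primary tumors, where no gene passed, the sign turned for Rbbp4 with upper-quartile factors (0.019), on total counts (0.021) and within AS tumors (0.17), for Rbbp7 on total counts (0.013) and within AS tumors (0.11), and for Jarid2 within CR tumors (0.19). With 1 tumor left out, the difference ranged from -0.027 to 0.25 for Suz12, from -0.12 to 0.081 for Rbbp4, from -0.29 to 0.13 for Rbbp7, from -0.29 to 0.20 for Jarid2 and from -0.041 to 0.47 for Aebp2. The causes were not tested. Over 20 alternatives between phenotypes, Ezh2 kept its direction and passed in 13 (adjusted p = 1.44e-05 to 0.177), Rbbp7 in 8 (0.00356 to 0.432) and Aebp2 in 14 (9.74e-07 to 0.149). Scaling by total counts moved the median of all genes between phenotypes from -0.01 to -0.12. The library of metastatic CR2, with 20905806 counts, was the shallowest, and Phf19 was too low in every tumor for a comparison.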
